A study of Homo sapiens and Mus musculus with 18 samples.

Results

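The genes described here are 44 members of the TGF-beta superfamily pathway taken by name, out of 63677 genes counted in human embryonic stem cell derived mesothelium cultures. They comprise 7 TGF-beta, activin and nodal ligands, 7 bone morphogenetic proteins (BMPs), 7 growth and differentiation factors (GDFs), 8 secreted antagonists, 6 type I and 4 type II receptors, 1 co-receptor and 4 genes known as targets of TGF-beta signalling.

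A ligand of this superfamily binds a pair of type II receptors, which phosphorylate a pair of type I receptors. TGF-beta, activin and nodal act mainly through SMAD2 and SMAD3, and BMPs and many GDFs through SMAD1, SMAD5 and SMAD9. Antagonists such as noggin, chordin, gremlin and follistatin hold ligands outside the cell. In mesothelium, the epithelial sheet that lines the body cavities and covers the internal organs, TGF-beta is known for driving the change from an epithelial to a mesenchymal form.

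All human samples came from WA09, 1 human embryonic stem cell line, first turned to splanchnic mesoderm for 4 days with WNT3A at 25 ng/ml and BMP4 at 100 ng/ml. MesoT cells, the mesenchymal form, were then kept in a defined medium with activin A at 10 ng/ml, FGF2 at 8 ng/ml, WNT3A at 25 ng/ml, BMP4 at 50 ng/ml and retinoic acid at 4 µM up to day 18 or day 22. Serum-passaged MesoT cells (MesoT FCS) were at passage 4 in 10% fetal bovine serum with FGF2 at 8 ng/ml and no BMP4 or activin A listed. Mesothelium-like cells (MLC), the epithelial form, were made from splanchnic mesoderm over 18 days in total, without FGF2 or activin A, with retinoic acid at 4 µM and SB431542 at 20 µM. SB431542 blocks the kinase of the TGF-beta, activin and nodal type I receptors and largely spares the BMP type I receptors. MesoT-derived MLC were MesoT cells replated into the same MLC medium. The smooth muscle library came from splanchnic mesoderm left in culture, with no medium stated. Every group was therefore derived through BMP4 and WNT3A. As listed, the MLC and MesoT media differ in SB431542, activin A, FGF2, BMP4 and WNT3A at once, so the part of each factor cannot be told apart. For BMP4 and WNT3A this rests on their not being listed for the MLC medium.

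Counts came as 7 one-library files and as 1 table of 6 libraries, of which the MesoT day 18 samples are in both. The one-library totals ran from 21148477 to 70679258 counts, with the MLC libraries deepest, and the table's totals from 24137663 to 31435480. Each set was scaled apart and levels are counts per 1000000 counts (CPM), which depend on transcript length, so levels are compared between samples and not between genes. The 2 countings of the same day 18 samples were compared after the median offset was removed. There 32 members differed by at most 0.5 on the log2 scale in both replicates. So did 58.6% of the 22110 genes with enough counts to compare. TGFB1, NODAL, BMP3, GDF5, CHRD, BMPR1B, ACVRL1 and ACVR2B did not, and their levels are read only within a set. INHBB, BMP10 and GDF3 had too few counts to compare, and GDF10 was not in both countings. The mitochondrial share was 6.84% and 7.76% in MLC against 3.42% and 3.35% at day 18. Of 8 mesothelial marker genes, 5 to 8 reached 1 CPM in every library. They summed to 1299 CPM in the smooth muscle library, beside 387 to 1147 CPM in the other one-library files. The smooth muscle library summed to 2377 CPM over 6 stratified epithelium genes, all of them above 1 CPM, against 0 to 12.8 CPM in the other one-library files. Hepatocyte markers summed to 127 and 57.2 CPM in MLC and to 95.8 and 226 CPM in MesoT-derived MLC, against 1.37 to 4.58 CPM in the MesoT day 18 and day 22 libraries. Gut epithelium markers summed to 49.5 and 30.2 CPM in MLC and to 8.64 and 11.9 CPM in the day 18 files. In the table they summed to 21.1 and 116 CPM in MesoT-derived MLC replicates 1 and 2, against 2.07 to 3.81 CPM in MesoT. Markers of smooth muscle summed to 1632 and 266 CPM in the day 18 files, 205 and 181 CPM in MLC, and 7244 and 1706 CPM in serum-passaged MesoT. The smooth muscle library itself was at 1048 CPM, below day 18 replicate 1 and both serum libraries. The part of these other cells in the results below was not tested, and in bulk samples fewer cells of a type and less RNA per cell cannot be told apart.

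In MLC most of the pathway genes that changed were lower than in MesoT day 18. Most of all genes called there were lower too, with 31.8% of them higher. The lower members were ligands, antagonists and targets, while the higher ones were 2 receptors and the BMP antagonist CHRD. Of 41 members tested, 3 were higher and 11 lower in MLC (34.1%), where 7.83% of all tested genes were higher and 16.8% lower, 24.6% in either direction. The median log2 difference was -0.54 over the members and -0.03 over all 23049 genes tested. Serum-passaged MesoT had 4 members higher and 11 lower than day 18 (36.6%), against 13.0% and 14.4% of all genes and 27.3% in either direction. Between MLC and serum-passaged MesoT, 9 members were higher in MLC and 11 lower (48.8%), which is the background share of 48.9%, made of 22.6% higher and 26.3% lower. MesoT-derived MLC had 2 members higher and 5 lower than MesoT among 38 tested (18.4%), against 6.63% and 3.32% of genes and 9.94% in either direction. The smooth muscle library had 4 members higher than day 18 and none lower among 41 by edgeR's test (9.76%), with 1 library assumed to vary like the other groups, beside 5.08% and 3.58% of genes and 8.67% in either direction, and 10 members at an unadjusted p under 0.05. Single libraries moved these counts. The MLC count went from 14 to 2 without MLC replicate 1 and to 3 without replicate 2. The serum count went from 15 to 8 without serum replicate 1 and to 7 without replicate 2, and MLC against serum from 20 to 12 and 11 without MLC replicate 1 and 2. The smooth muscle count went from 4 to 10 and 6 without day 18 replicate 1 and 2. The MesoT-derived MLC count went from 7 to 0 without day 22 replicate 1 or MesoT-derived MLC replicate 2, and to 2 without day 22 replicate 2 or MesoT-derived MLC replicate 1. Of the 14 calls in MLC against day 18, CHRD and GREM1 were kept under every alternative, and the others were lost without MLC replicate 1 and, but for GDF5, also without replicate 2. Of the 15 serum calls, TGFB3, BMP7, GDF5, GREM1 and TGFBI were kept throughout, and each of the others was lost without at least 1 serum library. Of the 20 calls in MLC against serum 11 were kept throughout, and each of the others was lost without at least 1 MLC library. All 7 MesoT-derived MLC calls were lost without day 22 replicate 1 and without MesoT-derived MLC replicate 2, and BMP4, LEFTY2, FST, TGFBR3 and SKIL also against day 18 alone and against day 22 alone. All 4 smooth muscle calls were lost with only smooth muscle and day 18 in the fit. A log2 difference is given here ± its standard error, with the p of edgeR's quasi-likelihood test adjusted over all tested genes.

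**Figure D1:**
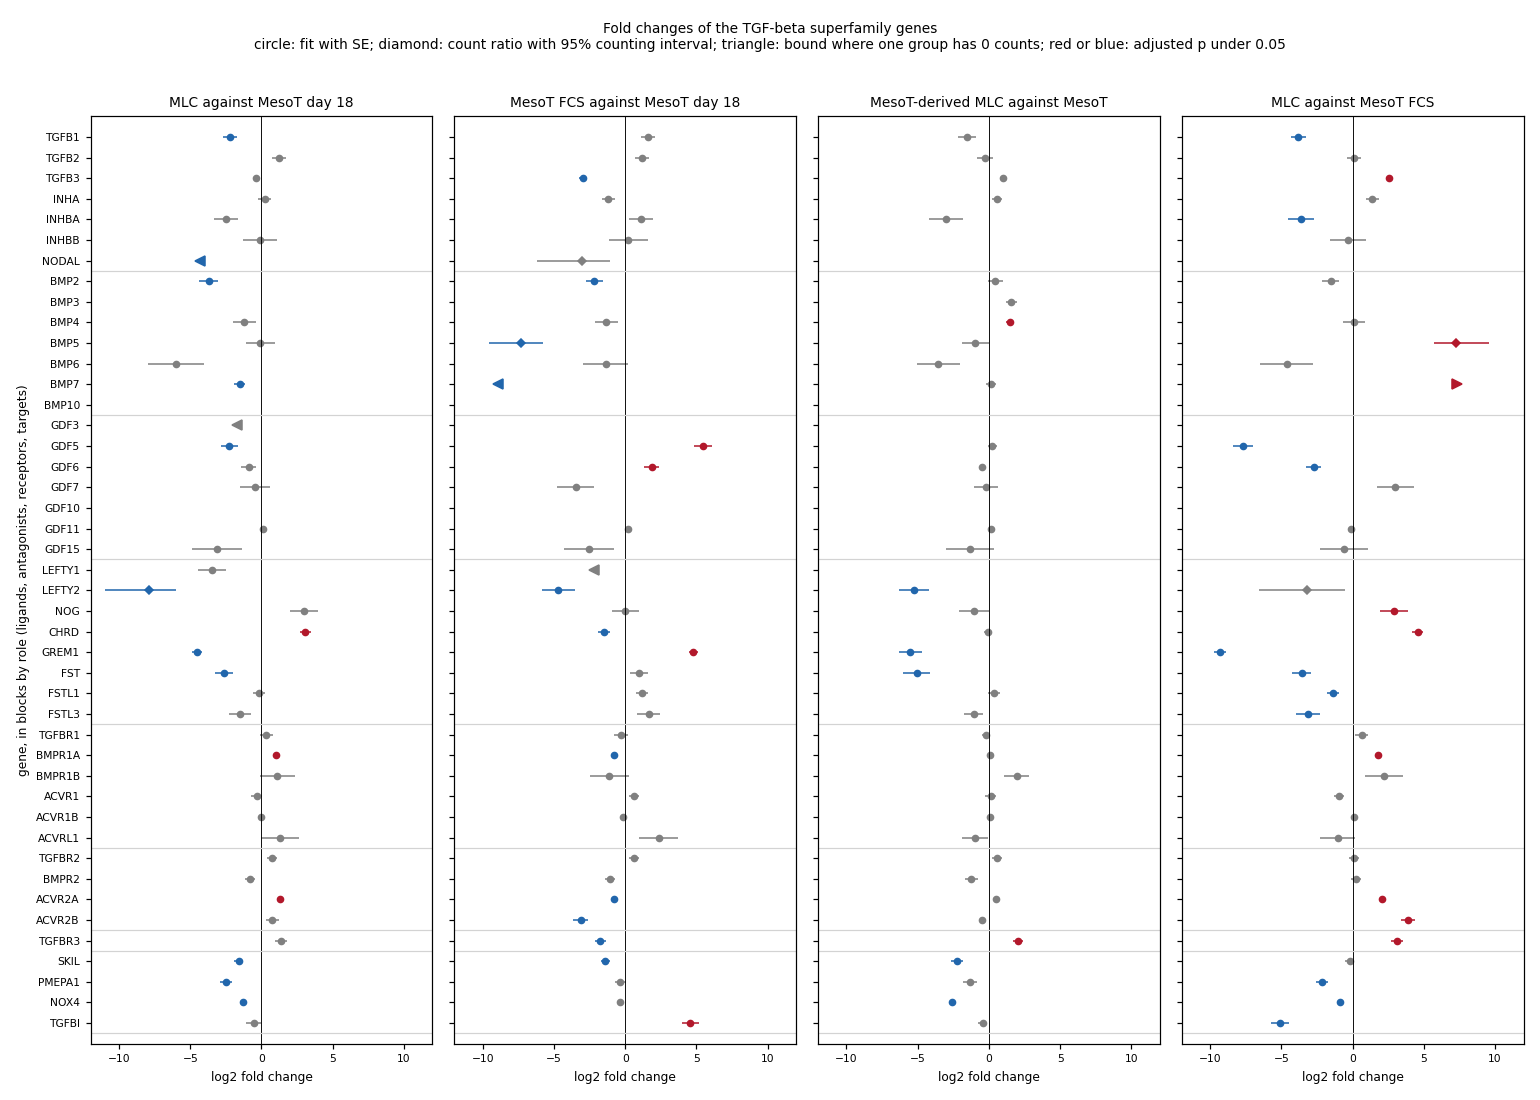
Log2 fold change of each member in 4 comparisons (horizontal axis, log2 scale), with members in rows by role. Circles are edgeR estimates with bars of 1 standard error, diamonds are count ratios with 95% counting intervals, triangles are bounds where a group had 0 counts, and red (higher) or blue (lower) marks an adjusted p under 0.05. In the panel of MLC against MesoT day 18, 11 blue marks lie left of 0, and the red ones are CHRD, BMPR1A and ACVR2A.

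The target genes SKIL, PMEPA1 and NOX4 were lower in MLC than in MesoT day 18. SKIL encodes SnoN, a SMAD corepressor that TGF-beta induces as feedback, PMEPA1 encodes a membrane protein that restrains SMAD2 and SMAD3, and NOX4 encodes an NADPH oxidase. SKIL was at 356 and 178 CPM in MesoT day 18, 94.8 and 81.7 in MLC, 99.3 and 104 in serum-passaged MesoT and 149 in smooth muscle. Both MLC and both serum libraries lay below both day 18 libraries. SKIL was lower in MLC (log2 difference -1.60 ± 0.33, adjusted p = 0.0209 by edgeR) and in serum-passaged MesoT (log2 difference -1.39 ± 0.33, adjusted p = 0.0296 by edgeR). In the table it was at 438 and 206 CPM at day 18, 357 and 216 at day 22 and 64.99 and 64.6 in MesoT-derived MLC. MesoT-derived MLC was lower than MesoT (log2 difference -2.23 ± 0.40, adjusted p = 0.0303 by edgeR), a call lost against day 18 or day 22 alone.

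NOX4 was at 19.2 and 20.6 CPM in MesoT day 18, 9.01 and 7.31 in MLC, 15.6 and 14.9 in serum-passaged MesoT and 14.6 in smooth muscle. MLC lay below every other library of that set, at 7.31 to 9.01 CPM against 14.6 CPM or more, and both day 18 libraries lay above all others. NOX4 was lower in MLC than at day 18 (log2 difference -1.29 ± 0.21, adjusted p = 0.00981 by edgeR). Table levels were 23.8 and 25.8 CPM at day 18, 20.9 and 29.1 at day 22 and 4.31 and 3.97 in MesoT-derived MLC, with no overlap between MesoT-derived MLC and either MesoT group. The difference from MesoT was -2.59 ± 0.23 on the log2 scale (edgeR adjusted p = 0.0115). That call was lost in 2 of 13 alternative settings, without day 22 replicate 1 and without MesoT-derived MLC replicate 2.

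PMEPA1 was at 98.5 and 40.7 CPM in MesoT day 18, 12.1 and 13.1 in MLC, 60.4 and 49.1 in serum-passaged MesoT and 106 in smooth muscle. The MLC libraries were below all others, while the day 18 libraries differed from each other by more than 2-fold. PMEPA1 was lower in MLC than at day 18 (log2 difference -2.47 ± 0.42, adjusted p = 0.0106 by edgeR) and than in serum (log2 difference -2.12 ± 0.42, adjusted p = 0.00887 by edgeR). In the table, at 128 and 47.2 CPM at day 18, 71.8 and 42.4 at day 22 and 35.2 and 20.3 in MesoT-derived MLC, it did not pass the test (log2 difference -1.35 ± 0.49, adjusted p = 0.1295 by edgeR).

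TGFBI, which encodes a secreted matrix protein first found as induced by TGF-beta, went another way. TGFBI was at 418 and 433 CPM in MesoT day 18, 256 and 330.5 in MLC, 4931 and 15419.6 in serum-passaged MesoT and 3843 in smooth muscle. Serum-passaged MesoT and smooth muscle were high and the day 18 and MLC libraries low, with no overlap. TGFBI was higher in serum than at day 18 (log2 difference 4.58 ± 0.61, adjusted p = 0.00746 by edgeR), and MLC was lower than serum (log2 difference -5.12 ± 0.63, adjusted p = 0.001896 by edgeR) but was not called against day 18 (-0.54 ± 0.53, edgeR adjusted p = 0.493). The day 18 and MLC libraries ran from 256 to 433 CPM.

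The 250 bases before the start are shown for SKIL, NOX4, GREM1 and FST. These are the members lower both in MLC against day 18 and in MesoT-derived MLC against MesoT that have a promoter in the RefSeq table of GRCh38.p14. LEFTY2, the other such member, has no entry. The comparisons share day 18 samples. Capitals mark CAGAC, the SMAD box AGAC with a flanking C, which SMAD3 and SMAD4 can bind, on either strand (GTCTG). The shorter AGAC or GTCT alone is not marked, and the FST window holds it too. SKIL is ENSG00000136603 on the plus strand at chr3:170357465-170357714. NOX4 is ENSG00000086991 on the minus strand at chr11:89491376-89491625, shown from 3 windows for the one that holds CAGAC. GREM1 is ENSG00000166923 on the plus strand at chr15:32717754-32718003, the upstream of 2 windows, and FST is ENSG00000134363 on the plus strand at chr5:53480379-53480628.
SKIL: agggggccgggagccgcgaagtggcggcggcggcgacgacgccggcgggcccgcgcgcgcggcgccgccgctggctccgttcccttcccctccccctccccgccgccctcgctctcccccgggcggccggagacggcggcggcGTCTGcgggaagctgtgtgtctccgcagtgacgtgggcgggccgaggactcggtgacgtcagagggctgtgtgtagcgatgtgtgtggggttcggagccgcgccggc
NOX4: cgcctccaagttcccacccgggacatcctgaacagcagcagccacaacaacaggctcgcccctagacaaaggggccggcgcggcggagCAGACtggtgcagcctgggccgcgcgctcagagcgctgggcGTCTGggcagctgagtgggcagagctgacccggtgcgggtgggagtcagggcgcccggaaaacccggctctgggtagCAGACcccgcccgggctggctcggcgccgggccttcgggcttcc
GREM1: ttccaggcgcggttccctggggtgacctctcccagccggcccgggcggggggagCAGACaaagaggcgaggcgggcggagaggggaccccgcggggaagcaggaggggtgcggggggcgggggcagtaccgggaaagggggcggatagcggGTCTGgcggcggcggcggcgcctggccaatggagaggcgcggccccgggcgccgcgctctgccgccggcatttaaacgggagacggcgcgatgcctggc
FST: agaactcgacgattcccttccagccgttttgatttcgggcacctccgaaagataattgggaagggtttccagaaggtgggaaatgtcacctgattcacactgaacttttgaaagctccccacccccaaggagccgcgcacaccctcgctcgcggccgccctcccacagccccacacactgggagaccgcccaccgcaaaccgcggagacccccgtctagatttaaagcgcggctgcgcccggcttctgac
SKIL holds 1 match to CAGAC, the NOX4 window 3, the GREM1 window 2 and FST none. The letters are common: 38.0% of all 35116 windows hold at least 1, and 37.9% of the 58 windows of the 36 members with an entry. The longer palindrome GTCTAGAC, a SMAD binding element that holds neither CAGAC nor GTCTG, was in 0.182% of windows and in no member's window. GGCGCC, the palindrome known as a SMAD1 and SMAD5 site, was in 16.4% of all windows and 25.9% of the members' windows; it can overlap CAGAC by 1 base. A match is a description of these letters only.

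**Figure D2:**
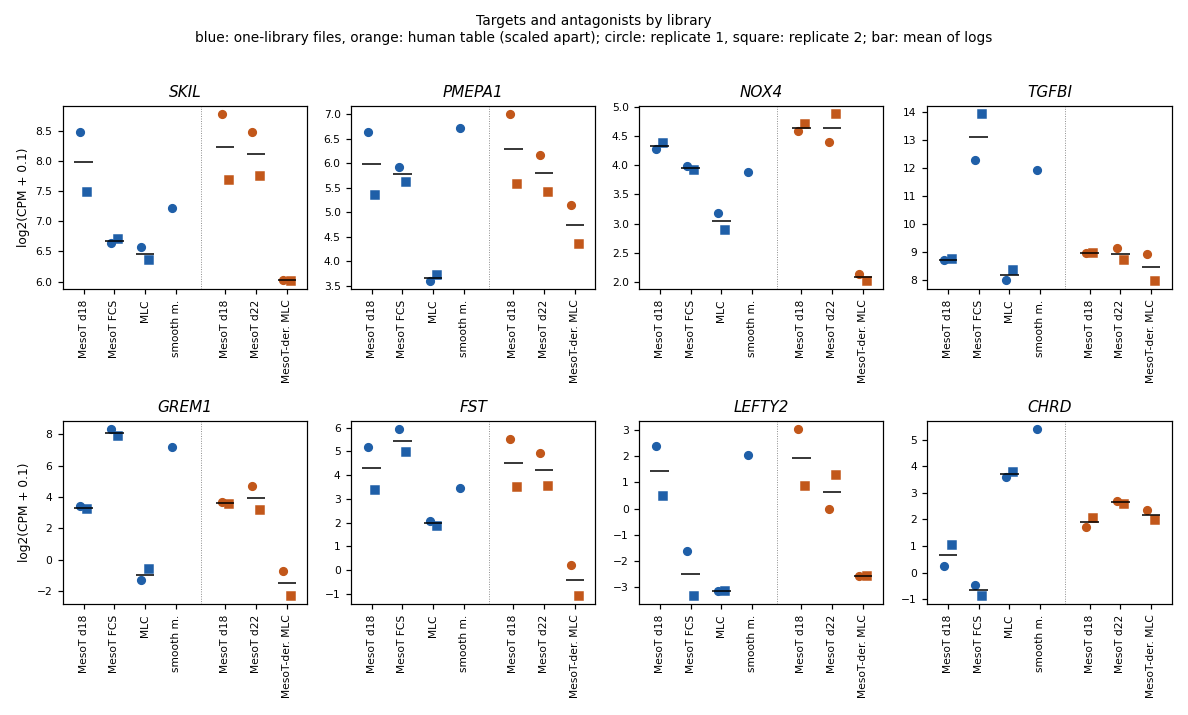
log2(CPM + 0.1) per library (vertical axis, ranges differ by panel) of 4 targets and 4 antagonists, by group on the horizontal axis. Circles are replicate 1, squares replicate 2 and bars the mean of the logs, with the one-library files in blue and the table, scaled apart, in orange. GREM1 is at 0.304 and 0.556 CPM in MLC and at 231 and 317 CPM in serum-passaged MesoT.

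Of the 8 antagonists, 1 was higher and 3 lower in MLC than at day 18 (50%, beside 24.6% of all genes). GREM1, which encodes gremlin 1, a BMP2 and BMP4 antagonist, ran from 0.304 to 317 CPM over the one-library files. GREM1 was at 10.5 and 9.26 CPM in MesoT day 18, 0.304 and 0.556 in MLC, 317 and 231 in serum-passaged MesoT and 143 in smooth muscle. No group overlapped another. GREM1 was lower in MLC than at day 18 (log2 difference -4.52 ± 0.35, adjusted p = 0.000754 by edgeR), higher in serum (log2 difference 4.79 ± 0.33, adjusted p = 0.00226 by edgeR) and higher in smooth muscle (log2 difference 3.86 ± 0.34, adjusted p = 0.0126 by edgeR). The table gave 12.6 and 11.4 CPM at day 18, 25.9 and 8.79 at day 22 and 0.513 and 0.103 in MesoT-derived MLC. MesoT-derived MLC was again the low group (log2 difference -5.53 ± 0.81, adjusted p = 0.0215 by edgeR). The calls in MLC against day 18 and in serum against day 18 were kept in every alternative run for them.

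CHRD encodes chordin, which binds BMP4 and BMP7, and in MLC it was higher where GREM1 was lower. CHRD was at 1.096 and 1.95 CPM in MesoT day 18, 12.002 and 13.8 in MLC, 0.625 and 0.447 in serum-passaged MesoT and 41.8 in smooth muscle. MLC and smooth muscle were above day 18 and serum was below, with no overlap. CHRD was higher in MLC (log2 difference 3.08 ± 0.36, adjusted p = 0.00289 by edgeR) and in smooth muscle (log2 difference 4.78 ± 0.41, adjusted p = 0.0126 by edgeR) and lower in serum (log2 difference -1.49 ± 0.40, adjusted p = 0.0397 by edgeR). In the table its levels were 3.22 and 4.03 CPM at day 18, 6.33 and 5.92 at day 22 and 5.06 and 3.83 in MesoT-derived MLC, and it was not called in MesoT-derived MLC (-0.08 ± 0.25, edgeR adjusted p = 0.848).

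FST encodes follistatin, which binds activin. FST was at 36.5 and 10.4 CPM in MesoT day 18, 4.15 and 3.53 in MLC, 60.6 and 31.1 in serum-passaged MesoT and 10.99 in smooth muscle. MLC was lowest, with the other groups wide. FST was lower in MLC than at day 18 (log2 difference -2.61 ± 0.64, adjusted p = 0.03402 by edgeR) and than in serum (log2 difference -3.58 ± 0.67, adjusted p = 0.00757 by edgeR). In the table, at 45.6 and 11.3 CPM at day 18, 30.6 and 11.4 at day 22 and 1.06 and 0.377 in MesoT-derived MLC, it was lower in MesoT-derived MLC (log2 difference -5.08 ± 0.94, adjusted p = 0.0318 by edgeR), but was not called against day 18 or day 22 alone.

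LEFTY2 encodes an inhibitor of nodal signalling and is itself a known target of that pathway. LEFTY2 was at 5.16 and 1.299 CPM in MesoT day 18, 0.0132 and 0.0142 in MLC, 0.223 and 0 in serum-passaged MesoT and 3.99 in smooth muscle. MLC was at 1 count in each library. The ratio of MLC to day 18 was 0.00418 over the summed counts, with a 95% counting interval of 0.000502 to 0.0153 (edgeR adjusted p = 0.0108). LEFTY2 was also called lower in serum-passaged MesoT than at day 18, a call kept in 7 of 11 alternatives. Its table levels were 8.06 and 1.72 CPM at day 18, 0.8999 and 2.33 at day 22 and 0.0683 and 0.0685 in MesoT-derived MLC, and MesoT-derived MLC was lower (log2 difference -5.27 ± 1.04, adjusted p = 0.0364 by edgeR), which did not hold against either day alone. LEFTY1 reached at most 12 counts in any library and was not called in the set in which it was tested. The related FSTL3 averaged 30.8 ± 6.82 CPM (SD, n = 2) in MLC and 272 ± 179 CPM in serum-passaged MesoT, where MLC was lower (log2 difference -3.14 ± 0.83, adjusted p = 0.0238 by edgeR). FSTL1 was also lower in MLC than in serum (log2 difference -1.36 ± 0.43, adjusted p = 0.0426 by edgeR). NOG, which encodes the BMP antagonist noggin, was higher in MLC than in serum (log2 difference 2.94 ± 0.98, adjusted p = 0.0499 by edgeR). Its 35.3 and 23.4 CPM in MLC against 6.96 and 0.581 CPM at day 18 did not pass the test (edgeR adjusted p = 0.0764).

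Among the TGF-beta and activin ligands, TGFB1 was lower in MLC and TGFB3 lower in serum. TGFB1 was at 196 and 69.03 CPM in MesoT day 18, 27.6 and 30.4 in MLC, 349 and 465 in serum-passaged MesoT and 657 in smooth muscle. MLC lay below day 18, and the 2 day 18 libraries themselves differed 2.84-fold. TGFB1 was lower in MLC than at day 18 (log2 difference -2.19 ± 0.49, adjusted p = 0.0258 by edgeR) and than in serum (log2 difference -3.81 ± 0.53, adjusted p = 0.00281 by edgeR). The first call was lost without either MLC library and with the table's counting of day 18 (edgeR adjusted p = 0.0635), where MLC kept the one-library counting. In the table, levels were 215 and 47.1 CPM at day 18, 80.1 and 43.5 at day 22 and 38.1 and 24.1 in MesoT-derived MLC, with no call.

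TGFB3 was at 44.2 and 40.8 CPM in MesoT day 18, 33.3 and 30.2 in MLC, 6.16 and 4.47 in serum-passaged MesoT and 92.6 in smooth muscle. The serum libraries were the low ones, and every other library was at 30.2 CPM or more. TGFB3 was lower in serum than at day 18 (log2 difference -2.99 ± 0.22, adjusted p = 0.00235 by edgeR), higher in the 1 smooth muscle library (log2 difference 1.12 ± 0.23, adjusted p = 0.0427 by edgeR) and not called in MLC (-0.42 ± 0.20, edgeR adjusted p = 0.176). The smooth muscle call was lost with the replicate block, with only those groups in the fit and without day 18 replicate 2. In the other set the gene was at 53.04 and 49.9 CPM at day 18, 29.3 and 49.6 at day 22 and 97.1 and 80.8 in MesoT-derived MLC. TGFB2 was at 131 and 53.8 CPM at day 18, 223 and 213 in MLC and 274 and 138 in serum, and was not called in any comparison.

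INHBA encodes the subunit of activin A. It averaged 25.01 ± 1.29 CPM (SD, n = 2) in MLC, 303 ± 108 in serum and 140.4 ± 152 at day 18. MLC was lower than serum (log2 difference -3.60 ± 0.91, adjusted p = 0.0207 by edgeR) and was not called against day 18, where 1 library was 7.45 times the other. NODAL, the ligand that patterns early mesendoderm, had 0 counts in both MLC libraries, which allows at most 0.0206 CPM there, and 5 and 20 counts at day 18. At these counts MLC was at least 20.2-fold lower, adjusted p = 0.0405 by edgeR. The call was lost with the replicate block, without day 18 replicate 2 and without either MLC library. NODAL was tested only through the groups where it is high. In the table, where NODAL was not tested, day 18 had 6 counts in each library and MesoT-derived MLC had 4 in each. INHA and INHBB were not called, INHBB with at most 32 counts in any library, in smooth muscle.

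**Figure D3:**
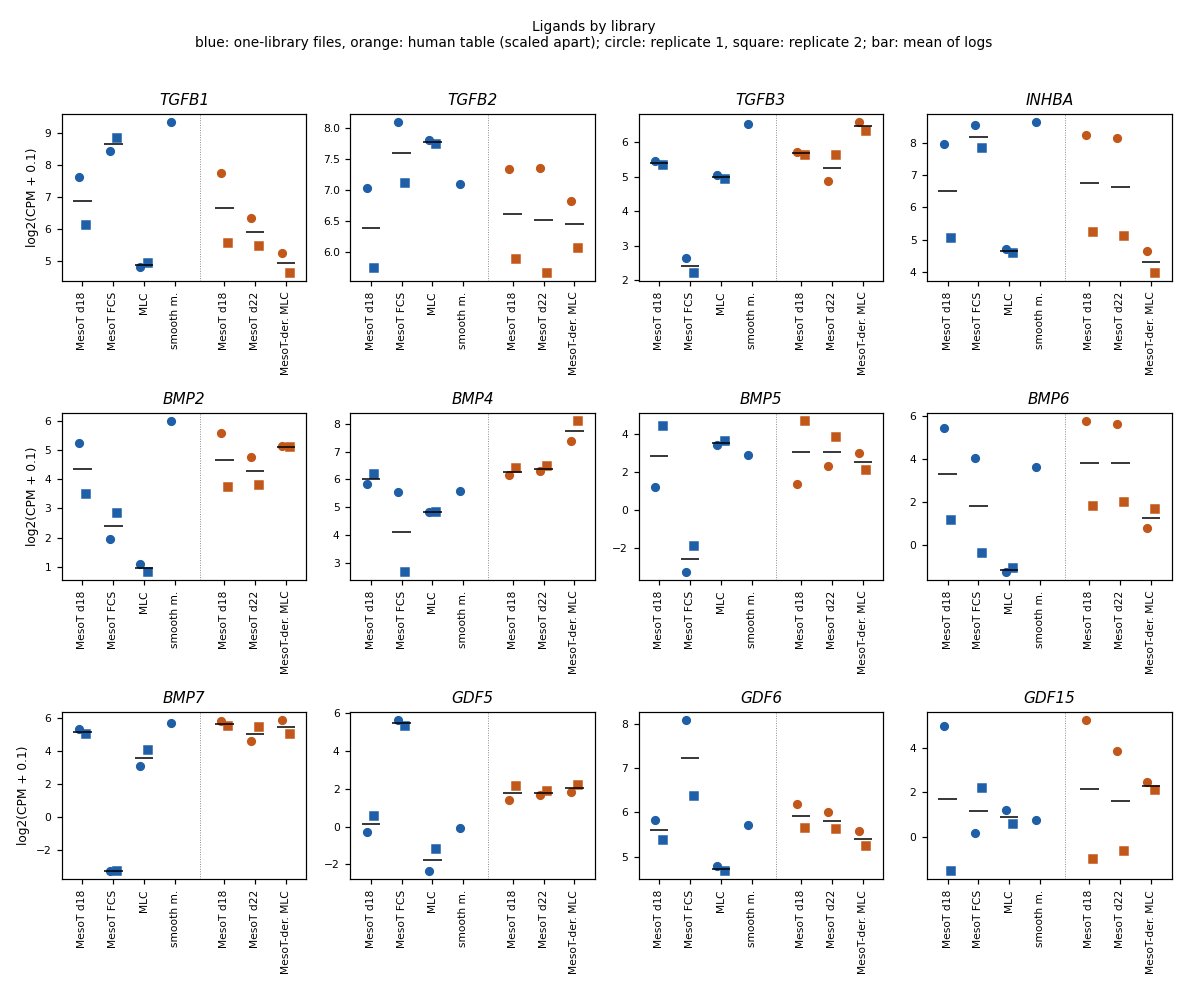
log2(CPM + 0.1) per library (vertical axis, ranges differ by panel) of 12 ligands, by group on the horizontal axis. Marks are single libraries, blue for the one-library files and orange for the table, and bars are means of the logs. GDF5 is at 40.2 and 50.1 CPM in serum-passaged MesoT and at 0.0925 to 1.37 CPM in the other one-library groups.

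The BMP ligands that were called were lower in MLC or in serum than in MesoT day 18, except BMP4. BMP2 was at 37.3 and 11.1 CPM in MesoT day 18, 2.05 and 1.65 in MLC, 3.795 and 7.04 in serum-passaged MesoT and 63.7 in smooth muscle. BMP2 was lower in MLC (log2 difference -3.71 ± 0.65, adjusted p = 0.0117 by edgeR) and in serum (log2 difference -2.17 ± 0.62, adjusted p = 0.0472 by edgeR). In the table its levels overlapped, at 47.97 and 13.1 CPM at day 18, 26.9 and 13.7 at day 22 and 34.96 and 33.7 in MesoT-derived MLC.

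BMP7 was at 39.6 and 31.6 CPM in MesoT day 18, 8.46 and 16.2 in MLC, 0 and 0 in serum-passaged MesoT and 51.9 in smooth muscle. Serum-passaged MesoT had 0 counts in both libraries, which allows at most 0.0744 CPM, so BMP7 was at least 480.2-fold lower, adjusted p = 0.00318 by edgeR. It was lower in MLC than at day 18 (log2 difference -1.53 ± 0.37, adjusted p = 0.0399 by edgeR) and, in MLC against serum, at least 163-fold higher, adjusted p = 0.000911 by edgeR. By the table it was at 56.4 and 44.6 CPM at day 18, 24.5 and 43.5 at day 22 and 58.8 and 31.7 in MesoT-derived MLC, and it was not called.

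BMP5 was at 2.19 and 22.04 CPM in MesoT day 18, 10.7 and 12.4 in MLC, 0 and 0.168 in serum-passaged MesoT and 7.33 in smooth muscle. The day 18 libraries were 10 times apart, and only serum stood clear of all others. The ratio of serum to day 18 was called (ratio 0.00629, 95% counting interval 0.001295 to 0.0185, adjusted p = 0.0224 by edgeR), as was that of MLC to serum (ratio 154, 95% counting interval 52.7 to 748, adjusted p = 0.0123 by edgeR).

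BMP4 was at 57.1 and 73.5 CPM in MesoT day 18, 28.4 and 28.3 in MLC, 46.2 and 6.199 in serum-passaged MesoT and 47.4 in smooth muscle. MLC was below day 18 without overlap and did not pass the test (-1.20 ± 0.79, edgeR adjusted p = 0.312). In the table BMP4 was at 70.7 and 85.5 CPM at day 18, 77.99 and 89.7 at day 22 and 168 and 276 in MesoT-derived MLC, and MesoT-derived MLC was higher than MesoT of both days together (log2 difference 1.46 ± 0.23, adjusted p = 0.0236 by edgeR), but was not called against either day alone. BMP4 protein was in the MesoT media and not listed in the MLC medium. BMP6 was not called, with 0.317 and 0.385 CPM in MLC and 43.2 and 2.15 at day 18, and the day 18 libraries were 20.1-fold apart. BMP3 had at most 3 counts in any one-library file and was untested there. Its table levels were 0.665 and 1.39 CPM at day 18, 1.0999 and 1.78 at day 22 and 3.01 and 4.31 in MesoT-derived MLC, and it was not called (edgeR adjusted p = 0.0567). BMP10 had 0 counts in all 7 one-library files, which allows at most 0.0111 CPM over them, and 1 count in the table.

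GDF5 and GDF6, which act in joint and skeletal patterning, were higher in serum-passaged MesoT. GDF5 was at 0.709 and 1.37 CPM in MesoT day 18, 0.0925 and 0.342 in MLC, 50.1 and 40.2 in serum-passaged MesoT and 0.855 in smooth muscle. Only the 2 serum libraries were high. The antisense gene GDF5-AS1 had 512 and 271 counts in serum, 5 and 20 at day 18 and 0 in both MLC libraries. Its part in the GDF5 counts was not tested. GDF5 was higher in serum than at day 18 (log2 difference 5.44 ± 0.63, adjusted p = 0.00564 by edgeR) and lower in MLC than at day 18 (log2 difference -2.25 ± 0.62, adjusted p = 0.0469 by edgeR), and its day 18 level differed between countings. GDF6 averaged 177 ± 134 CPM (SD, n = 2) in serum and 49.02 ± 10.7 at day 18 (log2 difference 1.85 ± 0.54, adjusted p = 0.0493 by edgeR), and MLC was lower than serum (log2 difference -2.74 ± 0.55, adjusted p = 0.00979 by edgeR). GDF11 lay between 25.2 and 51.02 CPM in all 13 library columns and was not called. GDF3, GDF7 and GDF15 were not called, and GDF15 in the day 18 files was at 31.6 and 0.239 CPM. GDF10 had 0 counts in all 7 one-library files and was not analysed here in the table.

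Of the 11 receptors and co-receptors, 2 were higher and none lower in MLC than at day 18 by edgeR. None was higher and 4 lower in serum than at day 18, and 4 were higher and none lower in MLC than in serum. The share called was below that of all genes in MLC against day 18 (24.6%) and in MLC against serum (48.9%). In serum against day 18 it was above that of all genes (27.3%). Whether the receptors as a set differ from all genes was not tested. BMPR1A encodes the BMP type I receptor ALK3, and ACVR2A an activin and BMP type II receptor. BMPR1A was at 61.3 and 59.7 CPM in MesoT day 18, 119 and 123 in MLC, 33.3 and 38.1 in serum-passaged MesoT and 43.02 in smooth muscle. MLC was above day 18 and serum below, with no overlap between these 3 groups. BMPR1A was higher in MLC (log2 difference 1.00 ± 0.15, adjusted p = 0.00681 by edgeR) and lower in serum (log2 difference -0.76 ± 0.15, adjusted p = 0.0179 by edgeR), the latter lost with the table's counting of day 18 (edgeR adjusted p = 0.105). The table held it at 61.9 and 53.3 CPM at day 18, 67.9 and 53.7 at day 22 and 65.3 and 60.9 in MesoT-derived MLC, and it was not called.

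ACVR2A was at 17.8 and 22.2 CPM in MesoT day 18, 46.04 and 54.2 in MLC, 12.8 and 10.8 in serum-passaged MesoT and 15.3 in smooth muscle. MLC was above every other library of the set. ACVR2A was higher in MLC (log2 difference 1.33 ± 0.21, adjusted p = 0.00818 by edgeR) and lower in serum (log2 difference -0.76 ± 0.21, adjusted p = 0.0435 by edgeR). In the table it was at 23.3 and 26.9 CPM at day 18, 27.3 and 21.9 at day 22 and 35.3 and 33.99 in MesoT-derived MLC, where MesoT-derived MLC lay above both MesoT groups without passing the test (0.48 ± 0.17, edgeR adjusted p = 0.114).

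ACVR2B encodes another type II receptor, for activin and nodal. ACVR2B was at 35.4 and 83.04 CPM in MesoT day 18, 98.8 and 102 in MLC, 4.69 and 8.88 in serum-passaged MesoT and 67.8 in smooth muscle. Serum was below and MLC above all other libraries. It was lower in serum than at day 18 (log2 difference -3.13 ± 0.50, adjusted p = 0.0108 by edgeR), but the table's counting of the same day 18 samples was 8.54 and 12.8 CPM, and with it the difference was -0.34 on the log2 scale (edgeR adjusted p = 0.416). MLC was not called against day 18 in the one-library counting (0.76 ± 0.45, edgeR adjusted p = 0.266) and was with the table's counting (3.57 on the log2 scale, edgeR adjusted p = 0.00215).

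TGFBR3 encodes betaglycan, a co-receptor that presents TGF-beta2 and inhibin. TGFBR3 was at 12.1 and 13.7 CPM in MesoT day 18, 27.1 and 39.6 in MLC, 5.31 and 2.401 in serum-passaged MesoT and 31.01 in smooth muscle. MLC was above and serum below day 18, without overlap. TGFBR3 was lower in serum than at day 18 (log2 difference -1.73 ± 0.41, adjusted p = 0.0286 by edgeR) and was not called in MLC (1.37 ± 0.39, edgeR adjusted p = 0.05205). Table levels were 19.9 and 21.2 CPM at day 18, 16.1 and 18.02 at day 22 and 108 and 45.1 in MesoT-derived MLC. MesoT-derived MLC was higher (log2 difference 2.03 ± 0.33, adjusted p = 0.0243 by edgeR), with no call against day 18 or day 22 alone.

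The receptors of TGF-beta itself were not called. TGFBR1 was at 113 and 98.7 CPM at day 18 and 129 and 139 in MLC (0.34 ± 0.47, edgeR adjusted p = 0.629), and TGFBR2 was at 42.7 and 19.2 at day 18 and 51.7 and 52.3 in MLC (0.75 ± 0.36, adjusted p = 0.182 by edgeR). BMPR2, ACVR1 and ACVR1B were not called either, and ACVR1B was at 34.7 to 41.9 CPM in the one-library set. BMPR1B and ACVRL1 had at most 137 counts in any library and were not called. A member that misses the threshold is not shown to be level: with 2 libraries a group, the median ratio of the larger to the smaller replicate was 1.99 at day 18 in 31 members with 1 CPM or more, and 1.16 in MLC.

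**Figure D4:**
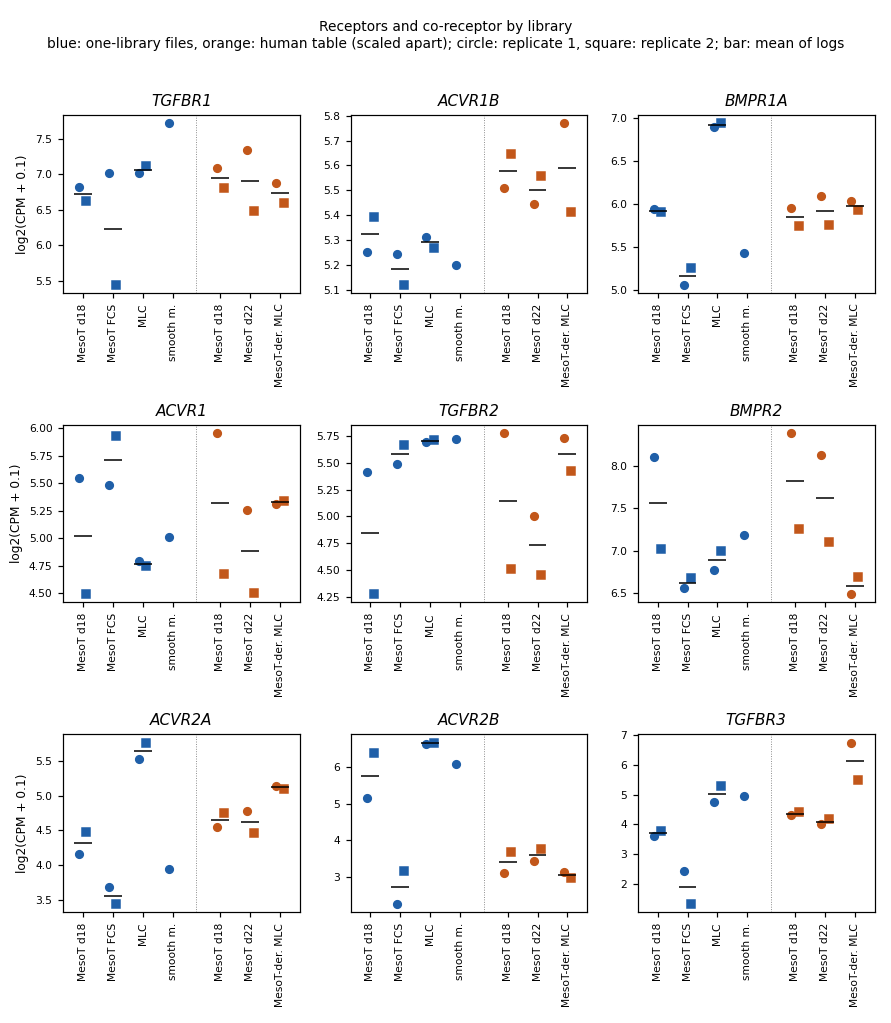
log2(CPM + 0.1) per library (vertical axis, ranges differ by panel) of 8 receptors and the co-receptor TGFBR3, by group on the horizontal axis. Marks are single libraries, blue for the one-library files and orange for the table, and bars are means of the logs. BMPR1A is at 119 and 123 CPM in MLC, 59.7 and 61.3 at day 18 and 33.3 and 38.1 in serum.

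In MesoT, no member was called between day 22 and day 18 by edgeR or DESeq2, and 1 of 38, CHRD, was at an unadjusted p under 0.05 (0.76 ± 0.29 on the log2 scale). No gene of the whole table was called (0%), and 171 of 22316 were at an unadjusted p under 0.05. Among the 34 members at 1 CPM or more in both day 22 libraries, the replicates lay farthest apart in BMP6, at 50.1 and 3.96 CPM. The labels do not say that replicates came from separate cultures, so p-values measure only the spread between these libraries, which may be technical.

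Other genes of the pathway, from lists of related ligands, receptors, antagonists, activators, SMADs and targets, were counted in the same way, and a share of a list near that of all genes is no result about the list. In MLC against day 18, 24.6% of all genes were called, 7.83% higher and 16.8% lower. In MLC against day 18, 4 of 12 latency and activation genes were lower and none higher. These were LTBP2 (log2 difference -6.23 ± 1.22, adjusted p = 0.01696 by edgeR), LTBP1 (-1.46 ± 0.36), THBS1 (-3.55 ± 0.77) and ITGB6 (-0.83 ± 0.22). LTBP1 holds TGF-beta in the matrix, and THBS1 and ITGB6 activate it. The shares of the other TGF-beta targets and of the BMP targets, 3 of 15 and 2 of 8, were near that of all genes. Of 15 other TGF-beta targets, COL7A1 was higher (log2 difference 1.41 ± 0.22, adjusted p = 0.00803 by edgeR), and CDKN2B (-4.73 ± 1.02) and TAGLN (-4.08 ± 1.06) were lower. TAGLN is also a smooth muscle marker. Of 8 BMP targets, ID2 (log2 difference 1.10 ± 0.28, adjusted p = 0.0365 by edgeR) and ATOH8 (1.02 ± 0.27) were higher and none lower. Among 14 SMADs and regulators, SMAD9 (log2 difference 1.71 ± 0.19, adjusted p = 0.00231 by edgeR), SMAD6 (1.92 ± 0.46) and SKI (0.78 ± 0.18) were higher and SMAD3 (-1.09 ± 0.25) lower. Of 6 other ligands tested 1 was higher and 4 lower, and of 7 other receptors AMHR2 (2.00 ± 0.23) and ENG (2.12 ± 0.36) were higher.

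In serum-passaged MesoT against day 18, 27.3% of all genes were called, 13.0% higher and 14.4% lower. Of the 8 BMP targets 4 were lower than at day 18 and none higher, MSX2 (log2 difference -4.58 ± 0.45, adjusted p = 0.00421 by edgeR), ID1 (-1.78 ± 0.27), ID3 (-1.72 ± 0.30) and MSX1 (-1.49 ± 0.41). Of the 15 TGF-beta targets 4 were higher and 1 lower, among them COL7A1 (log2 difference 3.00 ± 0.23, adjusted p = 0.00272 by edgeR) and TGFB1I1 (2.82 ± 0.49). LRRC15 is among them too, but with 3 and 2 counts at day 18 and 164 and 446 in serum it was tested only through the groups where it is high. Of the 14 SMADs and regulators 2 were higher and 6 lower, among them SMAD9 (-2.10 ± 0.19) and SMAD6 (-2.32 ± 0.48). ITGB6 was lower (log2 difference -8.62 ± 0.34, adjusted p = 0.001299 by edgeR) and LTBP4 higher (1.11 ± 0.28).

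In MesoT-derived MLC against MesoT, 9.94% of all genes were called, 6.63% higher and 3.32% lower. The BMP targets ID3 (log2 difference -3.18 ± 0.29, adjusted p = 0.0118 by edgeR) and MSX2 (-1.65 ± 0.38) were lower and none of the 8 higher. SMAD9 (-1.92 ± 0.26) and SMAD7 (-1.94 ± 0.41) were lower, and so were ITGB6 (-3.39 ± 0.70) and LTBP1 (-1.49 ± 0.34), the 2 of 12 latency and activation genes called. Of the 14 SMADs and regulators 1 was higher and 3 lower, of the 15 TGF-beta targets 1 and 2, and of the 11 other antagonists 0 and 1. AMH was higher (log2 difference 1.49 ± 0.21, adjusted p = 0.0204 by edgeR) and BAMBI lower (log2 difference -3.47 ± 0.40, adjusted p = 0.0145 by edgeR). The 2 comparisons share labelled day 18 samples and were scaled apart, and the difference between them was not tested.

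Between MLC and serum-passaged MesoT, 48.9% of all genes were called, 22.6% higher and 26.3% lower in MLC. There 7 of the 8 BMP targets were higher in MLC and none lower, and 9 of the 15 other TGF-beta targets were lower and none higher. MSX2 (log2 difference 5.52 ± 0.47, adjusted p = 0.000637 by edgeR) and ID1 (2.53 ± 0.27) are examples of the first, and TGFB1I1 (log2 difference -3.49 ± 0.50, adjusted p = 0.00322 by edgeR) and TAGLN (-6.17 ± 1.17) of the second. Of 14 SMADs and regulators 9 were higher and 2 lower, of 12 latency and activation genes 2 and 6, of 11 other antagonists 3 and 4, of 7 other receptors 3 and 2, and of 6 other ligands 1 and 3. In serum against day 18, the other antagonists and the other receptors each had 2 higher and 2 lower, and the other ligands 0 and 2. In MLC against day 18, the other antagonists had 1 of each.

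In the smooth muscle library, 3 of the 15 TGF-beta targets were higher than at day 18 and none lower, COL7A1 (log2 difference 6.53 ± 0.28, adjusted p = 0.00524 by edgeR), SNAI2 (1.20 ± 0.16) and LRRC15, where 8.67% of all genes were called. LRRC15 had 5 counts over both day 18 libraries and 320 in smooth muscle, and was tested only through the groups where it is high. These tests set 1 library against 2 with the spread of other groups, and with only smooth muscle and day 18 in the fit edgeR called 0 genes. ITGB6 was the 1 latency and activation gene called (log2 difference 2.08 ± 0.25, adjusted p = 0.0172 by edgeR). COL7A1 and ITGB6 are also expressed by stratified epithelium, whose markers summed to 2377 CPM in this library, and their part in the result was not tested. The BMP targets and the other receptors each had 1 higher and 1 lower, the SMADs 0 and 1, and no other ligand or antagonist was called by edgeR.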

How the data were processed

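Human RNA libraries from WA09-derived cells were analysed, 11 of the 18 samples. The mouse and ChIP samples were not used here. The authors deposited raw counts per gene, in one file a library for 7 libraries and in 1 table for 6 (the day 18 samples are in both). The submitters' processing notes name TopHat2 2.0.13, Bowtie2 2.2.9, Subread 1.4.2 with featureCounts and hg19, without roles. Neither annotation release nor strand setting is given in the sources used here. Gene symbols came from Ensembl IDs. 7 members have a named antisense gene (TGFB2, TGFB3, INHBA, BMP7, GDF5, GREM1 and ACVR2B), so their counts can hold antisense reads. The 2 sets were fitted apart with edgeR 4.0.16 in R 4.3.3 (filterByExpr by group, TMM, quasi-likelihood F test, Benjamini-Hochberg over all tested genes, threshold 0.05), each with 3 residual degrees of freedom, and DESeq2 1.42.0 as an alternative. Fold changes against a group with 0 counts are bounds against 3 counts over the group. A gene near 0 counts in a group passed the filter only through the groups where it is higher. Counting intervals cover counting error only. The members and lists were chosen with earlier results of these data known. Members past the threshold are named, with per-library CPM for the 10 of smallest adjusted p a comparison, and other pathway genes by up to 4 a list. The fit was tested on simulated counts with the same small spread for every gene. Such counts cannot show how it does at the wider replicate spread of the day 18 libraries. Alternatives changed normalization, filter, tool, blocking, groups fitted and left-out libraries.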

Additional observations from a re-analysis of the deposited data

Results flagged for a closer look

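BMP4 was lower in both MLC libraries than in both day 18 libraries (28.4 and 28.3 against 57.1 and 73.5 CPM, log2 difference -1.20, not past edgeR's threshold), and higher in both MesoT-derived MLC libraries than in both day 18 libraries of the table (168 and 276 against 70.7 and 85.5 CPM, 1.46 against MesoT of day 18 and day 22 together, past it, but not called against day 18 alone). It is listed because every sample of one route lay below and every sample of the other above. The difference between the routes was not tested, the sets were scaled apart and the same day 18 samples stand in both.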

How the results depend on the processing

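No called member reversed its direction under any alternative. The members called in MLC against MesoT day 18 numbered 14, and 2 to 18 with single libraries left out, and CHRD and GREM1 were called in every alternative. In serum-passaged MesoT against day 18 they numbered 15, 7 with only those groups fitted and 7 to 21 without single libraries. In MLC against serum they numbered 20, and 11 to 20 without single libraries. In smooth muscle against day 18 they numbered 4, with 7 by DESeq2, 2 with the replicate block, 0 with only those groups, 8 with the table's day 18 counts and 6 to 10 without single libraries. In MesoT-derived MLC they numbered 7, with 11 by DESeq2, 2 against day 18 alone, 2 against day 22 alone and 0 to 10 without single libraries. A group left with 1 library was assumed to vary like the others.

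Over all genes, the calls in MLC against day 18 were 5666, and 9237 with the table's day 18 counts and 1714 to 6601 without single libraries. For serum they were 6301, 3253 with only those groups, 12757 with the table's counts and 2783 to 7845 without single libraries. For MLC against serum they were 11272, and 4962 to 8507 without single libraries. For smooth muscle they were 1998, 4614 by DESeq2, 527 with the block, 0 with only those groups, 7935 with the table's counts and 2339 to 4292 without single libraries. For MesoT-derived MLC they were 2219, 4325 by DESeq2, 380 and 612 against day 18 or day 22 alone and 0 to 2995 without single libraries. Fewer samples and other countings of day 18 are part of these settings, and the cause was otherwise not tested. With the table's day 18 counts the other groups kept the one-library counting, so the groups compared were counted differently.

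With the replicate block, member counts were 12, 14, 20, 2, 9 and 0 for MLC, serum, MLC against serum, smooth muscle, MesoT-derived MLC and day 22. In the one-library files the numbers did not pair the samples: deviations of same-numbered libraries correlated at 0.0107 to 0.0730, and the labels tie no batch to them. In the table day 18 and day 22 correlated at 0.557, and MesoT-derived MLC with either at -0.00768 and -0.0636. Same-numbered day 18 and day 22 libraries thus deviated alike, while the main MesoT-derived MLC test took all MesoT libraries as separate. Scaling on genes counted alike, chosen after seeing the data, moved the median gene by -0.15 in MLC against day 18 and -0.10 in MLC against serum, and kept 14 of 14 and 19 of 20 member calls there (NOG was lost) and 14 of 15 in serum against day 18 (GDF6 was lost).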
